A study of Homo sapiens with 40 samples.

Results

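The nuclear-encoded subunits of oxidative phosphorylation (OXPHOS) are the protein-coding genes, outside mitochondrial DNA, whose GENCODE symbols follow the naming of the NADH dehydrogenase (NDUFA, NDUFB, NDUFC, NDUFS, NDUFV, NDUFAB), succinate dehydrogenase (SDHA to SDHD), ubiquinol-cytochrome c reductase (UQCR, CYC1), cytochrome c oxidase (COX4 to COX8) and ATP synthase (ATP5F, ATP5M, ATP5P) families. The rule selected 87 of the 60708 genes in the count tables, namely 37 of complex I, 4 of complex II, 10 of complex III, 17 of complex IV and 19 of complex V. NDUFA4 was placed in complex IV, where its protein is found. Another 67 symbols of the same form, 65 of pseudogenes and 2 of long non-coding RNAs, were not taken in.

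OXPHOS couples electron transfer to ATP synthesis in the inner mitochondrial membrane. Complexes I and II feed electrons from NADH and succinate into ubiquinone, complex III passes them to cytochrome c, complex IV reduces oxygen, and complex V uses the proton gradient built by complexes I, III and IV to make ATP. Most subunits are encoded in the nucleus and imported, while a small core of complexes I, III, IV and V is encoded in mitochondrial DNA. TGFβ, the cytokine used here, signals through the SMAD2, SMAD3 and SMAD4 transcription factors and induces epithelial-mesenchymal transition (EMT) in mammary epithelium.

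RNA-seq counts of 24 libraries, 3 in each of 8 groups, were examined, out of 40 samples in the series. MI cells are MCF-10A, an immortalized, non-transformed mammary epithelial line, and MII cells are its HRAS-transformed derivative MCF-10AneoT. Both were grown as spheres in ultra-low attachment plates, either unstimulated (MI Ctrl, MII Ctrl) or exposed to 2.5 ng/ml TGFβ1 for 16 h (MI TGFβ, MII TGFβ). MDA-MB-231, a triple-negative breast carcinoma line, was grown as a monolayer and is present as WT, as SLUG KO (edited with Cas9 and 1 guide RNA at the start of exon 1 of SNAI2, then expanded from single-cell colonies), and after transfection of scrambled siRNA (Csi) or of siRNAs against SMAD2, SMAD3 and SMAD4 (siSMAD2/3/4). The sources used here do not say which colony or colonies the SLUG KO libraries came from. The study's methods speak in general of independent biological repeats, but neither they nor the labels say how the 3 libraries of a group were obtained, so p-values measure the spread between these libraries.

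Between 14124688 and 38406952 fragments per library fell on genes. Replicates correlated at r of at least 0.984 across genes in all groups except WT, where replicate 2 reached 0.957 and 0.952 with the other libraries, so the counts of calls that rest on WT, and the fold-changes of the genes named for them, are also given without it. HRAS was at 215 to 223 counts per 1000000 (CPM) in MII Ctrl and 39.6 to 41.4 in MI Ctrl, and SMAD7, a feedback target of TGFβ, was not called after TGFβ in either line. The study's own RT-qPCR reported SMAD7 as raised by TGFβ in MI- and MII-spheres, more so as the cultures aged. SMAD2, SMAD3 and SMAD4 were lower after siSMAD2/3/4, with log2 fold-changes of -1.92, -0.69 and -1.73. SNAI2 went against its label: it was at 57.7 to 64.3 CPM in the libraries labelled SLUG KO and at 20.9 to 33.7 CPM in WT (log2 fold-change 1.11, SE 0.214, adjusted p = 0.0399, and 0.94, SE 0.097, adjusted p = 2.54e-06 without WT replicate 2). The RNA of an edited gene need not fall, the study checked its knockout clones by digital PCR and immunoblotting, and SNAI2 protein was not measured in these libraries. KRT5 and other basal markers summed to 1910 to 1980 CPM in MI Ctrl and 611 to 621 in MII Ctrl, and VIM and other mesenchymal markers to 1610 to 1680 CPM in WT against 55.0 to 60.6 in MI Ctrl. KRT5 had no count in the WT libraries.

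The promoters of the subunits with the largest rise after TGFβ in MI-spheres, 1 from each complex, show the sequence in front of the genes that the following values are about. RefSeq windows (GRCh38.p14) of 250 bases before and 50 after the transcription start were given for 68 of the 87 subunits, and 19 had none, SDHC among them. Capitals mark the letters of NRF1 (GCATGCGC, found in SDHB) and of the TATA box (TATAAA, found in COX7B, where it overlaps its own reverse complement TTTATA). The sequences run 5′ to 3′ along the strand of the gene and end at the base before its RefSeq start. The gene spans used for counting begin earlier for NDUFB6, COX7B and ATP5MC1, inside the stretches printed.
NDUFB6 is shown for chr9:32573160-32573409, minus strand.
NDUFB6: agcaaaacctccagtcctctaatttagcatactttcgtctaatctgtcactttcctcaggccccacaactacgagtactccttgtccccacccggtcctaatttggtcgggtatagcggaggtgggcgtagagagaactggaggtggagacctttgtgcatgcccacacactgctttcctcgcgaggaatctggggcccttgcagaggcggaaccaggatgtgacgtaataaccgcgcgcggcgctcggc
SDHB is shown for chr1:17054033-17054282, minus strand.
SDHB: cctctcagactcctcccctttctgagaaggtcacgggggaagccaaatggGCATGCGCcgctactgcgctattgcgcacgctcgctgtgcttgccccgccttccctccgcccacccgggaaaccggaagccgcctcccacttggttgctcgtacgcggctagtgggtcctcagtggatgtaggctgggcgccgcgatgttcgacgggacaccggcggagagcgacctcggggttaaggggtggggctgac
UQCRC1 is shown for chr3:48609647-48609896, minus strand, a stretch that GENCODE also annotates as an exon of a non-coding UQCRC1 transcript.
UQCRC1: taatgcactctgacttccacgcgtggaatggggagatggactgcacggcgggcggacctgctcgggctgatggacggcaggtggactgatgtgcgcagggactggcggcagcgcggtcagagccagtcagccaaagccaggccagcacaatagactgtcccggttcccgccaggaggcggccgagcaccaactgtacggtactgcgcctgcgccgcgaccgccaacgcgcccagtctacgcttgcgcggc
COX7B is shown for chrX:77899272-77899467, plus strand, shortened to 196 bases.
COX7B: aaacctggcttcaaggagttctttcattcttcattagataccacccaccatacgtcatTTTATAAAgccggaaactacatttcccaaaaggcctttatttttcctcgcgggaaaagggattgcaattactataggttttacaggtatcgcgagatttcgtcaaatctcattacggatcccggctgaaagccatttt
ATP5MC1 is shown for chr17:48892537-48892786, plus strand.
ATP5MC1: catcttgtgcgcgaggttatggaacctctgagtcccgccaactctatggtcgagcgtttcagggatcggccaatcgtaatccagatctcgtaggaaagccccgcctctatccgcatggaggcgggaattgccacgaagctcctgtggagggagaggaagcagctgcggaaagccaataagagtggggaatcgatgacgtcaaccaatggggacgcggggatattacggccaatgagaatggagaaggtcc

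Letters bound by factors known for respiratory genes were searched on both strands of the whole 300-base windows. NRF1 letters lay in 13 of 68 subunit windows (19.1%) and in 3.27% of all 27305 windows. The ETS/GABPA letters CCGGAAGT lay in 10 (14.7%, against 4.44% of all) and the YY1 letters AAGATGGCG in 8 (11.8%, against 1.85%). At least 1 of the 3 lay in 25 subunit windows (36.8%, against 8.9%) and at least 2 in 6 (8.8%, against 0.648%). TATAAA lay in 7 subunit windows (10.3%) and in 3264 of all windows. Subunits with and without NRF1 letters had nearly the same median log2 fold-change after TGFβ in MI-spheres, 0.346 over 13 and 0.342 over 51 tested subunits, and in MII-spheres the medians were 0.364 and 0.391. A match is a description of letters and not a binding site. The YY1 letters of SDHB and UQCRC1 lie after the start and outside the stretches printed.

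Levels were compared between subunits only per length, as FPKM (CPM divided by the length in kilobases of the exons that were counted). Over the median of the 8 group means, NDUFS5 (274 FPKM) and NDUFA1 (249), small accessory subunits, led complex I, followed by NDUFB7 (91.5). SDHC (35.0), SDHB (31.3) and SDHD (29.1) of complex II lay close together, and SDHA, the flavoprotein, was at 2.67, while per length of the canonical transcript SDHB came before SDHD and SDHC. In complex III UQCRH, the hinge protein, was highest, followed by UQCRQ (75.8) and CYC1 (62.1), the cytochrome c1 subunit. COX8A (222), COX6B1 (140) and COX7C led complex IV, and the catalytic β subunit ATP5F1B (241), ATP5MK (100) and ATP5F1C (80.4) led complex V. In complexes I, III, IV and V, of the 24 subunits that were among the 3 highest or the 3 lowest of their complex, 23 stayed there when TPM was used and 19 when the length of the canonical transcript was used.

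Several low levels belong to subunits that the counting could not fully see. Fragments were counted without strand and only when they fell on 1 gene, and 23 of the 87 subunits have 20% or more of their coding bases inside exons of other annotated genes. NDUFA7, NDUFV2, UQCR11, COX6B2 and ATP5MF-PTCD1 have all their coding bases there, NDUFA13 98.4% and SDHA 90.2%. The counts of these genes come from the remaining exon bases and are uncertain, as are those of UQCRHL, a near-identical copy of UQCRH, and of the readthrough gene ATP5MF-PTCD1. NDUFS7 (1.32 FPKM), NDUFA13 (1.07) and NDUFA7 (0.253) were the lowest of complex I.

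TGFβ raised the subunits as a group in MI-spheres. Of 80 subunits that passed the low-count filter, 70 were called higher (87.5%) and 2 lower at an adjusted p under 0.05 (edgeR's quasi-likelihood test, Benjamini-Hochberg adjustment over all genes). Over all 16863 genes tested, 28.7% were called higher and 27.4% lower, and over the 13051 protein-coding genes 35.1% and 24.2%. The median log2 fold-change was 0.357 over the subunits (interquartile range 0.273 to 0.436), -0.0165 over all genes and 0.0583 over protein-coding genes. The rises were small and even: no subunit rose by more than 1 on the log2 scale, and the 2 called with an absolute log2 fold-change above 1 had fallen. The 8 subunits not called were NDUFA13, NDUFA9, SDHA, SDHD, UQCRHL, COX5A, COX7A1 and NDUFA4, and the 7 not tested, for want of counts, were NDUFA7, COX4I2, COX6A2, COX7B2, COX8C, ATP5MF-PTCD1 and ATP5MGL. In these bulk libraries a change in RNA per cell cannot be told apart from a change in the number of cells of a type.

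**Figure D1:**
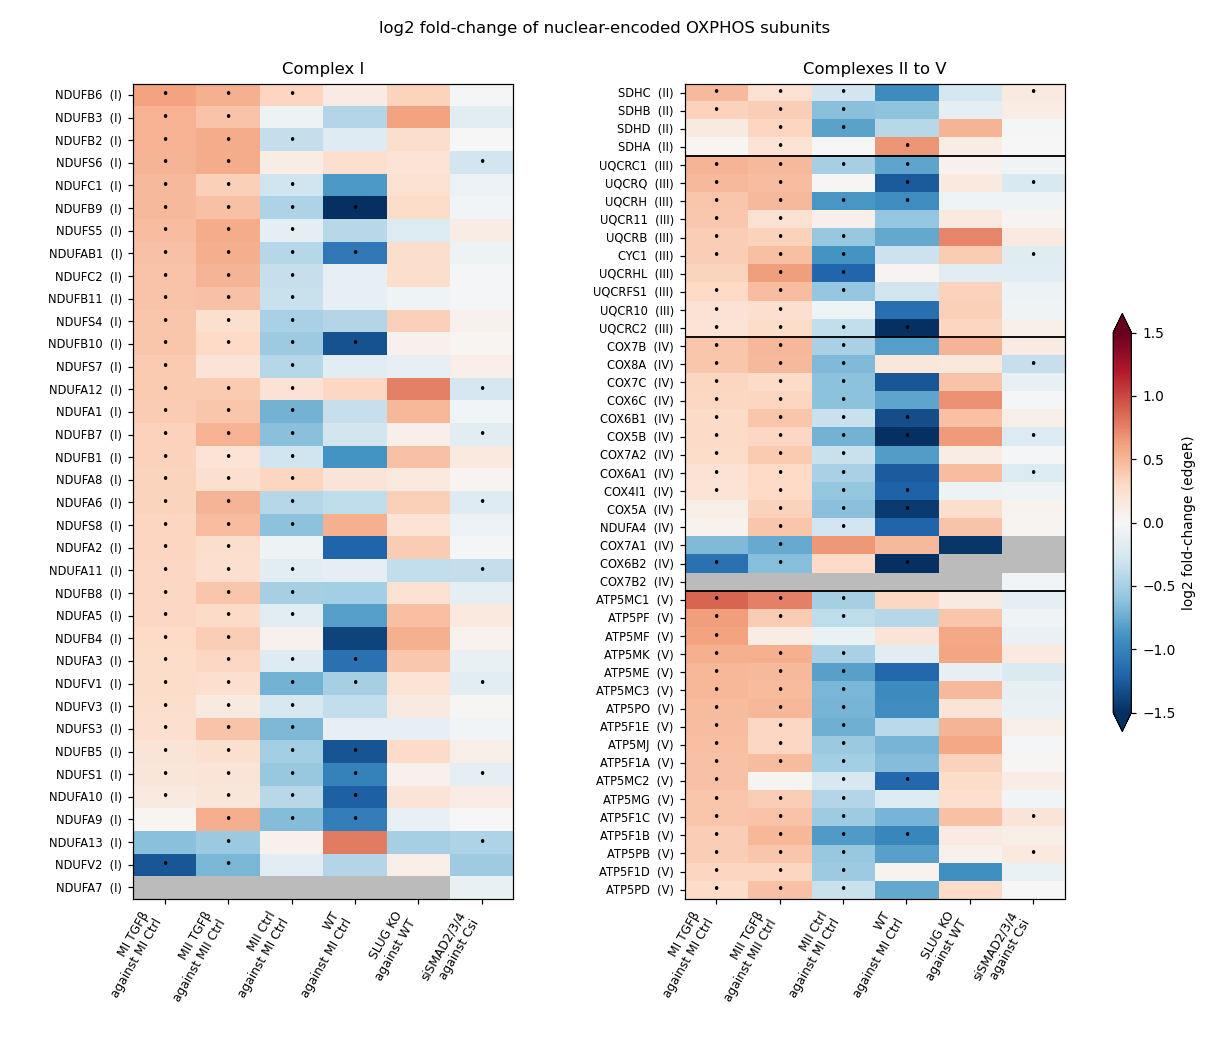
Log2 fold-change (color, edgeR) of subunits (rows, complex in brackets) tested in at least 1 of 6 comparisons (columns), with 1 subunit left out. Dots mark adjusted p under 0.05 and grey marks genes not tested. The first and second columns are red for nearly all subunits, the third is blue for most, and the column of SLUG KO against WT carries no dot.

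All 17 tested subunits of complex V rose in MI-spheres, with a median of 0.451. ATP5MC1 (chr17:48892765-48895871, GRCh38.p13), which encodes the c-ring subunit that carries protons through the ATP synthase, was at 40.9, 39.3 and 43.7 CPM in MI Ctrl and 81.5, 77.9 and 80.9 CPM in MI TGFβ. Every stimulated library lay far above every unstimulated one, and the change was the largest rise of any subunit (log2 fold-change 0.87, SE 0.0602, adjusted p = 1.1e-10). The protein is made from 3 genes. ATP5MC2 was at 131.4, 131.6 and 138.4 CPM without and 188.9, 186.2 and 199.2 CPM with TGFβ (log2 fold-change 0.43, SE 0.0503, adjusted p = 2.93e-07), and ATP5MC3 at 199.7, 202.4 and 209.01 CPM in MI Ctrl and 305.1, 294.5 and 310.3 CPM in MI TGFβ (log2 fold-change 0.49, SE 0.0488, adjusted p = 3.11e-08). For all 3 genes the groups did not overlap. ATP5PF, a subunit of the peripheral stalk, went from 40.6, 43.9 and 44.6 to 68.1, 69.3 and 73.2 CPM (log2 fold-change 0.63, SE 0.0613, adjusted p = 2.53e-08).

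In complex I 33 of 36 tested subunits rose in MI-spheres (median 0.339) and 1 fell. NDUFB6, an accessory subunit of the membrane arm, was at 51.4, 52.7 and 55 CPM in MI Ctrl and 86, 76.2 and 93.8 CPM in MI TGFβ, with no overlap (log2 fold-change 0.60, SE 0.0649, adjusted p = 1.03e-07). NDUFB3, also of the membrane arm, was at 51.5, 53.9 and 56.4 CPM in MI Ctrl and 80.0, 74 and 91.5 CPM in MI TGFβ (log2 fold-change 0.52, SE 0.0667, adjusted p = 1.16e-06). The exception was NDUFV2, an iron-sulfur subunit of the NADH-oxidizing module, at 8.37, 8.95 and 7.37 CPM without and 3.79, 3.53 and 3.45 CPM with TGFβ (log2 fold-change -1.28, SE 0.138, adjusted p = 1.06e-07). All of its coding bases lie inside exons of an overlapping gene, so that its count comes from other exon bases.

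Complex II, which is also the citric acid cycle enzyme succinate dehydrogenase, had 2 of 4 subunits called higher in MI-spheres. SDHC, a membrane anchor, was at 68.5, 67.5 and 64.7 CPM in MI Ctrl and 97.8, 98 and 102.6 CPM in MI TGFβ (log2 fold-change 0.49, SE 0.054, adjusted p = 1.48e-07), and SDHB, the iron-sulfur subunit, at 115.6, 106.6 and 111.95 CPM in MI Ctrl and 149.2, 138.7 and 162.1 CPM in MI TGFβ (log2 fold-change 0.35, SE 0.056, adjusted p = 2.36e-05). Both pairs of groups were separate. SDHD, the other anchor, was at 85.7, 90.8 and 96.1 CPM in MI Ctrl and 99.6, 95.5 and 120.7 CPM in MI TGFβ, and its groups overlapped (log2 fold-change 0.13, SE 0.0685, adjusted p = 0.111). SDHA was at 22.1, 20.2 and 22.8 CPM in MI Ctrl and 24.9, 21.8 and 24 CPM in MI TGFβ, also with overlap (log2 fold-change 0.03, SE 0.0799, adjusted p = 0.74). SDHD has 65.8% and SDHA 90.2% of its coding bases in exons of other genes, and SDHB and SDHC have none.

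In complex III 9 of 10 subunits rose in MI-spheres (median 0.366). UQCRC1, a core subunit, was at 235.02, 228.6 and 234.3 CPM in MI Ctrl and 363.1, 329.7 and 362.4 CPM in MI TGFβ (log2 fold-change 0.51, SE 0.0503, adjusted p = 2.58e-08), and UQCRQ, a small subunit, at 218.9, 220.8 and 247.00 CPM in MI Ctrl and 330.8, 333.2 and 357.7 CPM in MI TGFβ (log2 fold-change 0.49, SE 0.0549, adjusted p = 1.74e-07). Neither overlapped. In complex IV 9 of 13 tested subunits rose (median 0.273) and 1 fell. COX7B was at 148.4, 154.7 and 169.04 CPM in MI Ctrl and 211.1, 204.5 and 250.4 CPM in MI TGFβ (log2 fold-change 0.41, SE 0.0641, adjusted p = 1.39e-05) and COX8A at 110.7, 114.3 and 118.1 CPM in MI Ctrl and 164.5, 150.2 and 168.7 CPM in MI TGFβ (log2 fold-change 0.41, SE 0.0535, adjusted p = 1.42e-06), again without overlap. COX6B2, the testis isoform of COX6B1, fell from 1.81, 2.6 and 1.66 to 0.768, 1.12 and 1.02 CPM (log2 fold-change -1.12, SE 0.286, adjusted p = 0.00223), and all of its coding bases lie in exons of another gene. Among the 60 tested subunits with under 20% of coding bases shared, 56 rose and none fell in MI-spheres by this test (57 of the 60 had an unadjusted p under 0.05).

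**Figure D2:**
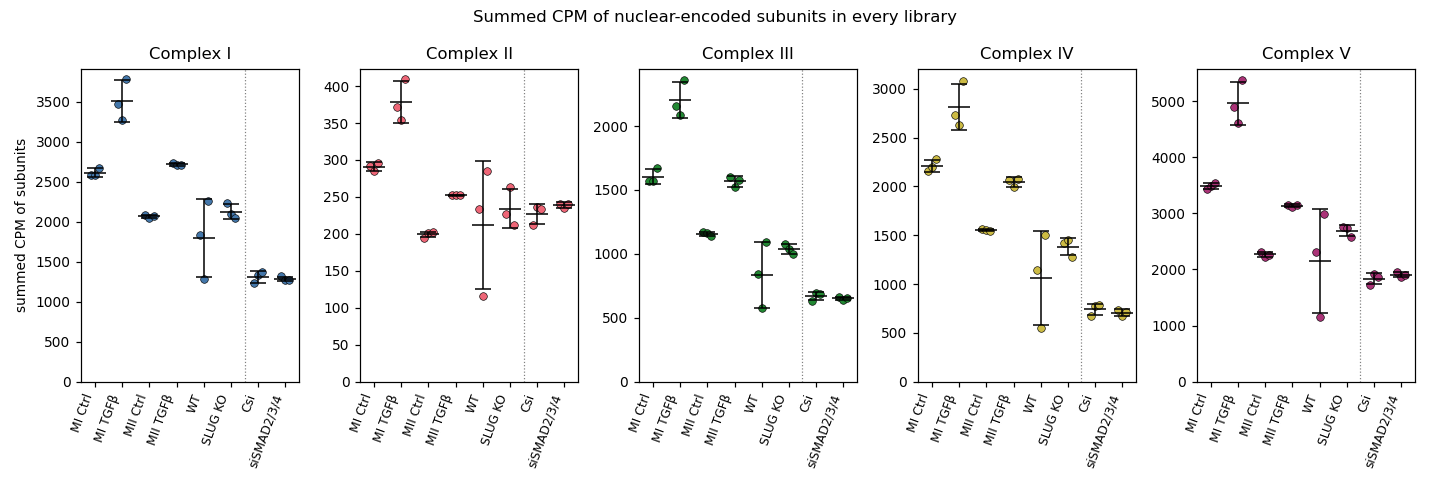
Summed CPM of the subunits of each complex in every library (points), with the mean and SD of 3 libraries (bars) and axes that start at 0. The dotted line separates libraries with another batch label. In each complex the MI TGFβ libraries lie above MI Ctrl and the MII TGFβ libraries above MII Ctrl.

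Summed over a complex, every MI TGFβ library was above every MI Ctrl library. Complex I summed to 2610 ± 57.7 CPM in MI Ctrl and 3510 ± 262 in MI TGFβ, and complex V to 3480 ± 55.1 and 4960 ± 384 (mean ± SD, n = 3). Complex II summed to 291 ± 5.57 and 378 ± 28.2, complex III to 1600 ± 57.7 and 2200 ± 140, and complex IV to 2210 ± 61.1 and 2810 ± 236 CPM. As a share of all counts the subunits made up 1.01% to 1.03% in MI Ctrl and 1.15% to 1.24% in MI TGFβ. CPM here were scaled over all 24 libraries and fold-changes over the 6 libraries of a comparison, which makes the ratio of CPM larger than the fitted change by 0.0823 (log2) in MI-spheres and by 0.0357 in MII-spheres, for the median gene.

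MII-spheres responded in the same direction. Of 80 tested subunits 73 were called higher (91.2%) and 4 lower, where 29.9% of the 16396 genes tested were called higher and 27.6% lower. The median was 0.371 over the subunits, -0.0179 over all genes and 0.0647 over protein-coding genes. All 4 subunits of complex II and all 10 of complex III rose, as did 33 of 36 in complex I, 11 of 13 in complex IV and 15 of 17 in complex V. NDUFS7, ATP5MC2 and ATP5MF were not called, and NDUFA13, NDUFV2, COX6B2 and COX7A1 were lower. The adjusted p of NDUFA13, COX6B2 and COX7A1 lay near the threshold, at 0.0424, 0.0324 and 0.0465 (edgeR). DESeq2, and edgeR without a low-count filter, each called 1 subunit lower.

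ATP5MC1 again rose most, from 28.8, 29.7 and 28.5 CPM in MII Ctrl to 51.9, 49.1 and 49.7 CPM in MII TGFβ (log2 fold-change 0.75, SE 0.0622, adjusted p = 3.39e-15). ATP5MK, a small subunit of the membrane part, went from 70.5, 66.7 and 71.3 to 103.7, 103.3 and 102.1 CPM (log2 fold-change 0.54, SE 0.0487, adjusted p = 9.73e-14). In complex I NDUFS6, an accessory subunit of the peripheral arm, went from 44.6, 45.2 and 50.0 to 70.5, 71.4 and 69.1 CPM (log2 fold-change 0.56, SE 0.0569, adjusted p = 3.56e-12). For these 3 genes all stimulated libraries lay above all unstimulated ones. NDUFB2 of the membrane arm rose as well (log2 fold-change 0.56, SE 0.0535, adjusted p = 4.94e-13), while NDUFV2 was at 6.88, 7.19 and 7.99 CPM without and 4.53, 5.26 and 4.28 CPM with TGFβ (log2 fold-change -0.68, SE 0.147, adjusted p = 8.88e-05). NDUFA13, a membrane arm subunit, was at 2.25, 2.87 and 2.72 CPM in MII Ctrl and 1.76, 1.67 and 2.11 CPM in MII TGFβ (log2 fold-change -0.56, SE 0.24, adjusted p = 0.0424). NDUFV2 and NDUFA13 were below 10 CPM in all these libraries, with nearly all coding bases in exons of other genes.

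In complexes II to IV of MII-spheres the groups were separate for each gene named here. SDHB was at 72.9, 71 and 71.4 CPM in MII Ctrl and 95.7, 90.5 and 98.8 CPM in MII TGFβ (log2 fold-change 0.37, SE 0.0496, adjusted p = 8.47e-09), and SDHD at 49.4, 51.1 and 53.7 CPM in MII Ctrl and 68.2, 66.4 and 62.8 CPM in MII TGFβ (log2 fold-change 0.32, SE 0.0562, adjusted p = 3.11e-06). The log2 fold-changes of SDHC and SDHA were 0.23 and 0.21. UQCRC1 was at 162.2, 170.5 and 155.2 CPM in MII Ctrl and 240.02, 224.1 and 237.7 CPM in MII TGFβ (log2 fold-change 0.49, SE 0.0401, adjusted p = 3.51e-15), and the uncertain copy UQCRHL had a log2 fold-change of 0.62. COX7B was at 115.5, 110.8 and 109.03 CPM in MII Ctrl and 168.01, 156.1 and 161.7 CPM in MII TGFβ (log2 fold-change 0.50, SE 0.0425, adjusted p = 1.01e-14), and COX8A rose by a similar amount (0.48). COX7A1, the heart and skeletal muscle isoform of COX7A2, was at 1.46, 1.4 and 1.61 CPM in MII Ctrl and 0.541, 0.999 and 1.15 CPM in MII TGFβ (log2 fold-change -0.75, SE 0.329, adjusted p = 0.0465), and COX6B2 had a log2 fold-change of -0.63.

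**Figure D3:**
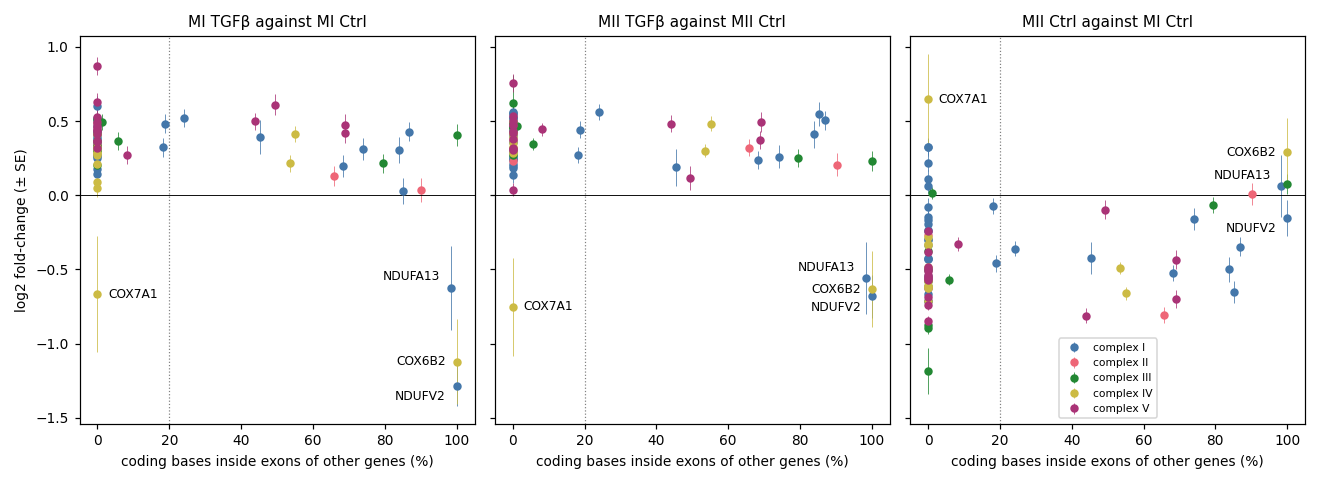
Log2 fold-change (± SE) of each tested subunit against the percentage of its coding bases inside exons of other genes, in 3 comparisons, with a dotted line at 20%. The genes called lower after TGFβ in either line are COX7A1, with no shared coding bases, and NDUFA13, COX6B2 and NDUFV2, which lie at 98.4% and above.

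A difference between the lines in their response was tested in 1 model of the 12 sphere libraries, as its interaction term. The response of 4 subunits was higher and of 3 lower in MII- than in MI-spheres, and 73 were not called, where 12.6% of the 18591 genes tested were called higher and 9.75% lower. The median difference was 0.0364 over the subunits and -0.000573 over all genes. ATP5MC2 was at 114.8, 108.1 and 114.5 CPM in MII Ctrl and 118.8, 117.5 and 117.6 CPM in MII TGFβ, narrowly separate and not called (0.04), whereas it rose in MI-spheres (difference of responses -0.39, SE 0.0662, adjusted p = 1.58e-05). The other c-ring genes ATP5MC1 and ATP5MC3 had differences of -0.11 and -0.01 and were not called. NDUFA4, of complex IV, showed the opposite pattern: it was at 180.8, 193.4 and 206.7 CPM in MI Ctrl, 206.1, 194.8 and 235.7 in MI TGFβ, 158.4, 156.97 and 157.3 in MII Ctrl and 215.2, 214.01 and 219.6 in MII TGFβ (difference 0.38, SE 0.0744, adjusted p = 0.000135). Its groups overlapped in MI-spheres and were separate in MII-spheres. The other called subunits were NDUFV2, NDUFA9 and COX5A with a higher response in MII-spheres, and SDHC and ATP5MF with a lower one.

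**Figure D4:**
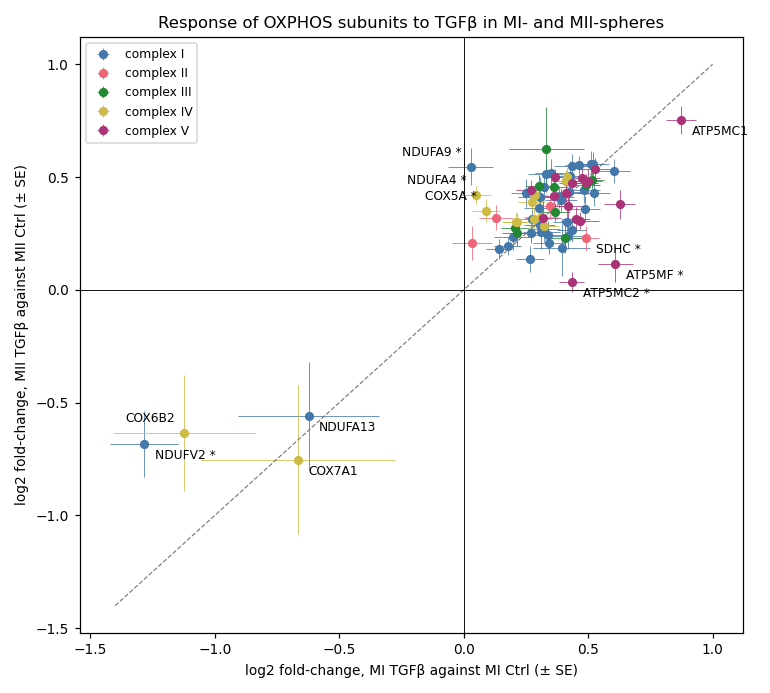
Log2 fold-change (± SE) after TGFβ in MI-spheres (horizontal) and MII-spheres (vertical) for the 80 tested subunits. The dashed line marks equal responses and asterisks the 7 subunits called in the interaction. Most points lie in the upper right quadrant, near a log2 fold-change of 0.4 on both axes.

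Unstimulated MII-spheres held less of the subunits than unstimulated MI-spheres, a comparison that shares its control libraries with those above. Of 80 tested subunits 64 were called lower (80.0%) and 3 higher, where 32.5% of the 17862 genes tested were called lower and 31.7% higher, and 40.1% of protein-coding genes lower. The median was -0.447 over the subunits, 0.0169 over all genes and -0.057 over protein-coding genes. In complex V 16 of 17 subunits were lower (median -0.537), in complex IV 11 of 13 (-0.489), in complex III 7 of 10 (-0.536), in complex II 3 of 4 (-0.448) and in complex I 27 of 36 (-0.343). As a share of all counts the subunits made up 0.773% to 0.785% in MII Ctrl, below every MI Ctrl library, and 0.922% to 0.937% in MII TGFβ.

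ATP5F1B, the catalytic β subunit of the ATP synthase, was at 864.1, 886.5 and 890.7 CPM in MI Ctrl and 485.6, 488.04 and 480.4 CPM in MII Ctrl (log2 fold-change -0.85, SE 0.0337, adjusted p = 3.05e-29). ATP5ME, a small membrane subunit, was at 84.1, 81.9 and 79.5 CPM in MI Ctrl and 47.1, 45.5 and 46.3 CPM in MII Ctrl (log2 fold-change -0.81, SE 0.0509, adjusted p = 1.48e-20). CYC1, cytochrome c1, was at 144.3, 139.7 and 153.8 CPM in MI Ctrl and 78.4, 80.8 and 73.8 CPM in MII Ctrl (log2 fold-change -0.89, SE 0.0446, adjusted p = 8.66e-25). The MII Ctrl libraries were below all MI Ctrl libraries for each of them. SDHD (-0.81) and SDHB (-0.63) of complex II, COX5B (-0.71) and COX8A (-0.66) of complex IV, and the uncertain UQCRHL (-1.19) were lower too. SDHA was at 22.1, 20.2 and 22.8 CPM in MI Ctrl and 20.7, 22.2 and 21.8 CPM in MII Ctrl, with overlap (log2 fold-change 0.01, SE 0.0733, adjusted p = 0.945).

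Complex I held all 3 subunits that were higher in MII Ctrl. NDUFB6 was at 69.2, 61.8 and 67.2 CPM in MII Ctrl, above all MI Ctrl libraries (log2 fold-change 0.32, SE 0.0537, adjusted p = 5.18e-07), NDUFA8, a subunit of the membrane arm, was at 36.6, 33.4 and 33.5 CPM in MI Ctrl and 41.4, 43.7 and 43.4 CPM in MII Ctrl (log2 fold-change 0.32, SE 0.0596, adjusted p = 4.3e-06), and NDUFA12 had a log2 fold-change of 0.22. NDUFV1, which binds NADH, was lower, at 173.9, 171.2 and 178.2 CPM in MI Ctrl and 106.2, 107.6 and 102.8 CPM in MII Ctrl (log2 fold-change -0.71, SE 0.0398, adjusted p = 1.24e-22), as was NDUFA1 (-0.71). Markers moved with the sphere comparisons. All 6 basal markers were called higher after TGFβ in each line, their sum reaching 3750 to 4080 CPM in MI TGFβ and 2160 to 2260 CPM in MII TGFβ, and 5 of 6 were lower in MII Ctrl than in MI Ctrl. The 7 luminal markers summed to 1770 to 1800 CPM in MI Ctrl, 2060 to 2200 in MI TGFβ, 2990 to 3020 in MII Ctrl and 3700 to 3860 in MII TGFβ. The 4 mesenchymal markers summed to 260 to 291 CPM in MI TGFβ, 137 to 143 in MII Ctrl and 153 to 166 in MII TGFβ. The 4 leukocyte markers, of which 1 had enough counts to be tested, summed to at least 98.3 CPM in MI Ctrl libraries and to 190 to 194 CPM in MII Ctrl, with PTPRC at 0 in the former and CD3E in the latter. The 3 endothelial markers summed to 31.3 to 34.5 CPM in MI Ctrl, 13.2 to 14.6 in MI TGFβ, 114 to 117 in MII Ctrl and at least 96.1 in MII TGFβ, and 1 was higher and 2 were lower in MII Ctrl than in MI Ctrl. The 2 adipocyte markers, of which 1 was tested and ADIPOQ was at 0 in both unstimulated groups, summed to 2.41 to 3.79 CPM in MI Ctrl, 1.52 to 1.76 in MI TGFβ, 10.1 to 13.4 in MII Ctrl and 4.86 to 7.23 in MII TGFβ. The 4 fibroblast markers summed to 18.3 to 20.6 CPM in MI Ctrl, 24.5 to 26.1 in MI TGFβ, 8.99 to 10.5 in MII Ctrl and 4.0 to 5.07 in MII TGFβ. The part of these markers in the results was not tested.

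Gene length moved with the sphere comparisons as well, and most subunits are short. Among protein-coding genes of the shortest of 5 equal classes of exon length, which held 47 of the 80 tested subunits, the median log2 fold-change after TGFβ in MI-spheres was 0.159 and 41.9% were called higher, and in the longest class it was -0.0246 and 27.9%. For MII Ctrl against MI Ctrl the medians of the shortest and longest classes were -0.148 and 0.0343. With an offset for gene length, the median over the subunits was 0.414 in MI-spheres, 0.429 in MII-spheres and -0.49 for MII Ctrl against MI Ctrl. Without it the medians were 0.357, 0.371 and -0.447. The offset followed the trend over all genes tested, non-coding ones included. These medians are therefore not corrected for the trend of protein-coding genes given above, whose part in the results was not tested.

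The 13 subunits encoded by mitochondrial DNA did not follow the nuclear-encoded ones. In MI-spheres 4 were higher and 6 lower after TGFβ (median -0.144), and in MII-spheres 1 was higher and 9 lower (median -0.196). These were 30.8% and 46.2% in MI-spheres, beside 28.7% and 27.4% of all genes tested. In MII-spheres they were 7.69% and 69.2%, beside 29.9% and 27.6%. Their summed CPM overlapped between groups, at 5300 to 5820 in MI Ctrl and 4630 to 5720 in MI TGFβ, and 8880 to 9420 in MII Ctrl and 8280 to 8910 in MII TGFβ. In MII Ctrl against MI Ctrl 11 were higher (84.6%, beside 31.7% of all genes tested) and the others not called (median 0.672). MT-ND4 (1.08) and MT-ND4L (1.02) of complex I were above 1. The 13 genes made up 0.522% to 0.585% of counts in MI Ctrl and 0.95% to 1.01% in MII Ctrl. Fragments were counted without strand, so that reads of MT-ND6, on the other strand of mitochondrial DNA, cannot be told apart from antisense reads.

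Genes around the complexes were counted from lists. Of 53 assembly factors, which help to build the complexes, 30 rose and 2 fell after TGFβ in MI-spheres (52 tested, median 0.216), 23 rose and 5 fell in MII-spheres (52 tested, median 0.165), and 24 were lower and 5 higher in MII Ctrl than in MI Ctrl (53 tested, median -0.158). The shares of assembly factors called in the leading direction were 57.7%, 44.2% and 45.3%, where 28.7%, 29.9% and 32.5% of all genes tested were called in that direction. Over protein-coding genes these shares were 35.1%, 37.3% and 40.1%, closer to those of the assembly factors. Of the 8 related genes such as CYCS, which encodes cytochrome c, 5 rose in each line and the others were not called or not tested. Of 22 regulators of respiratory genes and of mitochondrial biogenesis, 10 rose and 5 fell in MI-spheres, 8 rose and 5 fell in MII-spheres, and 3 were higher and 10 lower in MII Ctrl than in MI Ctrl. In MII-spheres these were 36.4% higher and 22.7% lower, near the 29.9% and 27.6% of all genes, and in MI-spheres 45.5% and 22.7%, beside 28.7% and 27.4%. In MII Ctrl against MI Ctrl they were 13.6% higher and 45.5% lower, beside 31.7% and 32.5% of all genes and 31.1% and 40.1% of protein-coding genes. PPARGC1A, the coactivator PGC-1α that promotes mitochondrial biogenesis, was at 21.1 ± 1.56 CPM in MI Ctrl, 16.9 ± 0.667 in MI TGFβ, 4.51 ± 0.59 in MII Ctrl and 11.9 ± 0.757 in MII TGFβ (mean ± SD, n = 3). It fell by 0.40 on the log2 scale in MI-spheres (SE 0.0855, adjusted p = 0.000472, edgeR) and rose by 1.33 in MII-spheres (SE 0.132, adjusted p = 1.6e-12), a difference of 1.74 (SE 0.149, adjusted p = 6.01e-12).

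In MDA-MB-231 cells knockdown of SMAD2, SMAD3 and SMAD4 moved few subunits. Of 80 tested, 4 were higher and 13 lower (16.2%) in siSMAD2/3/4 than in Csi, where 16.3% of the 17696 genes tested were higher and 19.7% lower, and the median was -0.0337 over the subunits and 0.00381 over all genes. The share of lower subunits was thus near that of all genes. COX8A was at 94.9, 99.1 and 119.9 CPM in Csi and 87.3, 84.1 and 76.4 CPM in siSMAD2/3/4, without overlap (log2 fold-change -0.35, SE 0.0597, adjusted p = 2.04e-05). CYC1 was at 119.6, 127.3 and 133.3 CPM in Csi and 117.1, 113.7 and 104.7 CPM in siSMAD2/3/4 (log2 fold-change -0.19, SE 0.046, adjusted p = 0.00167), and UQCRQ at 38, 48.3 and 43.5 CPM in Csi and 37.5, 37.7 and 36.6 CPM in siSMAD2/3/4 (log2 fold-change -0.22, SE 0.0644, adjusted p = 0.00662). Both were lower in every siSMAD2/3/4 library. NDUFA11 (-0.35) and NDUFA13 (-0.47) of complex I were lower too, and like COX8A they have over 20% of coding bases shared.

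Among the 4 subunits that were higher after siSMAD2/3/4 were members of complexes II and V. ATP5F1C, the central stalk γ subunit, was at 149.4, 163.1 and 158.6 CPM in Csi and 175.2, 175.4 and 188.4 CPM in siSMAD2/3/4 (log2 fold-change 0.19, SE 0.0435, adjusted p = 0.000849). SDHC was at 66.5, 77.4 and 72.3 CPM in Csi and 79.3, 80.0 and 82 CPM in siSMAD2/3/4 (log2 fold-change 0.15, SE 0.0499, adjusted p = 0.0174), with all siSMAD2/3/4 libraries of both genes above Csi. ATP5PB of the peripheral stalk had a log2 fold-change of 0.15. The count tables name another flow cell for siSMAD2/3/4 replicates 1 and 2, and with flow cell as a term 7 subunits were higher and 7 lower. In that fit 4 of the fold-changes named for this comparison were no longer past the threshold. Without Csi replicate 2 the counts were 9 higher and 8 lower, and without Csi replicate 3 there were 7 lower.

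No subunit was called between the libraries labelled SLUG KO and WT. Of 79 tested, none was higher and none lower by edgeR, 2 had an unadjusted p under 0.05, and DESeq2 called 0 as well, where 1.45% of the 17428 genes tested were called higher and 1.89% lower by edgeR. The median was 0.259 over the subunits and -0.0519 over all genes. WT replicate 2 stood apart: the subunits made up 0.733%, 0.394% and 0.843% of counts in WT replicates 1, 2 and 3, and 0.737% to 0.792% in SLUG KO. SDHD, for example, was at 83.9, 13.5 and 107.5 CPM in WT and 92.9, 115.5 and 87.8 CPM in the libraries labelled SLUG KO, and WT replicate 2 was far below the other 5 libraries. Mitochondrial DNA subunits made up 0.743%, 2.11% and 0.607% of counts in the same WT libraries.

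Without WT replicate 2, 9 of 79 tested subunits were higher and 5 lower in the libraries labelled SLUG KO. Both shares were below those of all genes, where 16.8% of 17909 were higher and 14.4% lower. The median was 0.00242 over the subunits and -0.0103 over all genes. COX5B, a nuclear-encoded structural subunit of complex IV, was at 49.3, 50.2 and 67.5 CPM in WT and 95, 90.5 and 78.8 CPM in SLUG KO (log2 fold-change 0.58, SE 0.118, adjusted p = 0.00135 without WT replicate 2). CYC1 was at 95.7, 127.3 and 128.7 CPM in WT and 169.2, 147.9 and 149.7 CPM in SLUG KO (log2 fold-change 0.46, SE 0.108, adjusted p = 0.00386). NDUFS5 of complex I was lower, at 156.4, 68.7 and 185.1 CPM in WT and 128.3, 109.2 and 124.2 CPM in SLUG KO (log2 fold-change -0.51, SE 0.093, adjusted p = 0.000544). For COX5B and CYC1 every SLUG KO library was above every WT library, whereas NDUFS5 was below WT replicates 1 and 3 and above WT replicate 2. SDHC (-0.59) and SDHB (-0.32) were lower in the same fit, and SDHC was at 40.9, 16.1 and 48.2 CPM in WT and 23.2, 43.5 and 22.3 CPM in SLUG KO, where replicate 2 lay between WT replicates 1 and 3. Since SNAI2 RNA went against the label, these directions are those of the libraries labelled SLUG KO, and their relation to SNAI2 loss was not tested.

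Unstimulated MI-spheres and MDA-MB-231 WT monolayers differ in line and in culture format, which cannot be told apart, and the comparison shares libraries with those of MI-spheres and of SLUG KO. Of 80 tested subunits 1 was higher and 21 lower (26.2%) in WT, where 28.1% of the 18732 genes tested were higher and 25.9% lower, and the median was -0.672 over the subunits and 0.0592 over all genes. The share of subunits called lower was thus near that of all genes. UQCRC2, a core subunit of complex III, was at 298.2, 293.96 and 323.2 CPM in MI Ctrl and 79.5, 43 and 96.1 CPM in WT (log2 fold-change -2.07, SE 0.301, adjusted p = 0.000952). COX5B was at 190.7, 174.2 and 186.8 CPM in MI Ctrl and 49.3, 50.2 and 67.5 CPM in WT (log2 fold-change -1.73, SE 0.188, adjusted p = 0.000235), and NDUFB9 at 57.3, 60.01 and 62.6 CPM in MI Ctrl and 18.2, 14.4 and 25.2 CPM in WT (log2 fold-change -1.64, SE 0.234, adjusted p = 0.000862). All 3 WT libraries of each gene were below MI Ctrl. Among the other subunits called lower were NDUFB10 (-1.31), UQCRQ (-1.26), ATP5F1B (-0.97), ATP5MC2 (-1.18) and COX6B2 (-2.85). SDHA was the only subunit called higher, at 35.8, 32.6 and 34.7 CPM in WT (log2 fold-change 0.66, SE 0.159, adjusted p = 0.0103). SDHA has 90.2% and COX6B2 all of its coding bases in exons of other genes, so their counts are uncertain.

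Leaving out WT replicate 2 raised the number of calls in WT against MI Ctrl. Then 12 subunits were higher and 50 lower in WT than in MI Ctrl, where 36.6% of 19572 genes were higher and 38.3% lower, with a median of -0.453 over the subunits and -0.0317 over all genes. UQCRC2 (-1.83) and COX5B (-1.69) were again lower, as was COX4I1 (-1.35). Of the others named above, NDUFB9 (-1.501), NDUFB10 (-1.30), UQCRQ (-0.99), ATP5F1B (-0.78), ATP5MC2 (-0.85) and COX6B2 (-2.71) were also lower in this fit. The subunits that were higher included NDUFA12 (0.67), NDUFB6 (0.50), ATP5MC1 (0.49) and SDHA (0.67).

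Complex IV has subunits with a widely used and a tissue-restricted isoform, and in all 24 libraries the widely used one was counted. COX4I2, COX6A2 and COX8C had at most 1 count in any library, while COX4I1 was at 103.2 to 370.2, COX6A1 at 14.9 to 204.1 and COX8A at 64.9 to 187.7 CPM over the libraries. COX7B2 had no count in the 12 sphere libraries, where a count of 0 allows at most 3 counts per library, and it had 4, 3 and 7 counts in WT, 0, 4 and 0 in SLUG KO, 15, 37 and 23 in Csi and 25, 21 and 25 in siSMAD2/3/4. COX7A1 and COX6B2 stayed below 3 CPM. All coding bases of COX6B2 lie in exons of another gene, so its count comes from other exon bases and its level is uncertain. COX6B2 was at 1.81, 2.6 and 1.66 CPM in MI Ctrl and 0.338, 0.207 and 0.282 CPM in WT, and the muscle genes MYH7, ACTA1, CKM and TNNT2 summed to at most 2.73 CPM in any library.

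**Figure D5:**
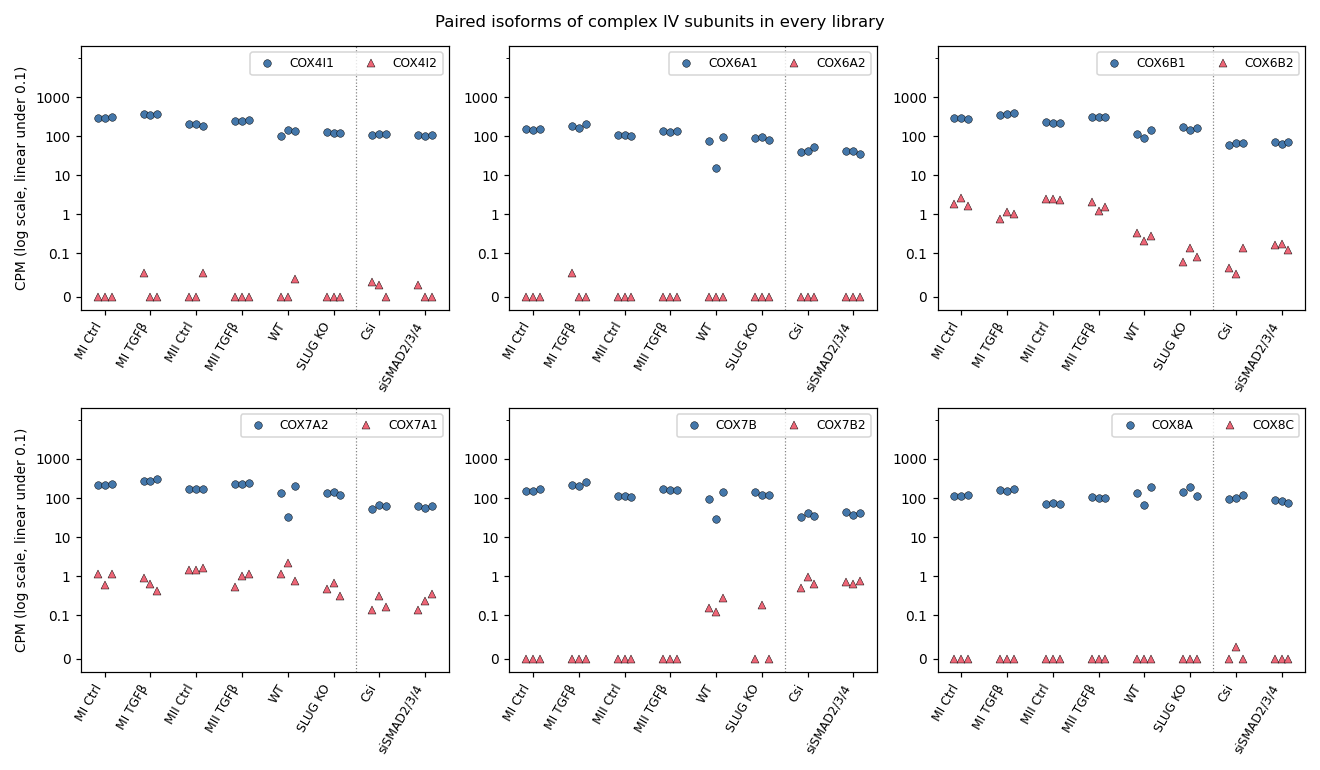
CPM of paired complex IV isoforms in every library, on an axis that is logarithmic above 0.1 and linear below it. Circles are the widely used and triangles the tissue-restricted isoforms, and the dotted line separates libraries with another batch label. COX7B2 is at 0 in all 12 sphere libraries and above 0 in all Csi and siSMAD2/3/4 libraries.

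The levels of all 4 MDA-MB-231 groups stand side by side only, because Csi and siSMAD2/3/4 carry another batch label. Complex IV summed to 1060 ± 482 CPM in WT, 1380 ± 90.7 in SLUG KO, 743 ± 58.0 in Csi and 708 ± 31.5 in siSMAD2/3/4, and complex V to 2150 ± 927, 2690 ± 95.4 and 1840 ± 97.1 CPM (mean ± SD, n = 3) and to 1870 to 1950 CPM in siSMAD2/3/4. WT replicate 2 was the lowest of its group, at 545 CPM for complex IV and 1150 CPM for complex V. Of counts in siSMAD2/3/4 and Csi, 4.35% to 5.37% and 3.46% to 4.51% fell on subunits of mitochondrial DNA.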

How the data were processed

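Raw counts, not normalized, are what the authors deposited, after Trimmomatic, STAR (GRCh38.p13) and featureCounts (Subread 2.0.0). Each table holds 1 library and 60708 genes. Per the file headers, pairs with both ends mapped and a mapping quality of at least 30 were counted on exons of GENCODE 38 genes, without strand, and fragments on more than 1 gene were left out. Read length and RNA input differ between the labels and the methods.

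Symbols, gene classes and coding bases came from GENCODE 44. The libraries of a comparison (6, or 12 for the interaction) were fitted with edgeR 4.0.16 in R 4.3.3: filterByExpr, TMM, the quasi-likelihood test and Benjamini-Hochberg adjustment over all genes tested. An adjusted p under 0.05 was a call. CPM used TMM-scaled library sizes of all 24 libraries. With 3 libraries a group, the smallest p of an exact permutation test is 0.1. Alternatives were DESeq2 1.42.0, its size factors, other count filters, a gene-length offset, a replicate block, other sets of libraries, flow cell as a term and leaving out each replicate. Fits were tested on simulated data. Intervals of counts cover counting error only.

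The members and gene lists were chosen with earlier results of these data known. Named are, per comparison and complex, the 2 called subunits with the largest change in each direction whose CPM did not overlap, the SDH subunits, isoform sets, c-ring genes and the highest and lowest levels per length. Named after their values were seen were NDUFA12 in MII Ctrl, COX5B, CYC1 and NDUFS5 in SLUG KO, NDUFA12 and NDUFB6 in WT without replicate 2, and subunits listed as not called. Values of 1 subunit and 1 further gene are not reported here, though the subunit is in all counts. The 16 ATAC-seq samples were not analysed here.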

Additional observations from a re-analysis of the deposited data

Results flagged for a closer look

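In 7 subunits the response to TGFβ differed between MII- and MI-spheres by the test of the difference itself (interaction term, edgeR's quasi-likelihood test). Of 80 tested subunits, 5.0% had a higher and 3.75% a lower response in MII-spheres, beside 12.6% and 9.75% of all 18591 genes tested. Both shares were thus smaller for the subunits than for all genes. The differences of log2 fold-change, MII minus MI, were 0.61 for NDUFV2 (SE 0.202, adjusted p = 0.0237), 0.53 for NDUFA9 (SE 0.125, adjusted p = 0.00148), 0.38 for NDUFA4 (SE 0.0744, adjusted p = 0.000135) and 0.27 for COX5A (SE 0.0751, adjusted p = 0.00616). They were -0.25 for SDHC (SE 0.0777, adjusted p = 0.0163), -0.48 for ATP5MF (SE 0.128, adjusted p = 0.00457) and -0.39 for ATP5MC2 (SE 0.0662, adjusted p = 1.58e-05). NDUFV2 fell in both lines, and SDHC rose in both. NDUFV2 has 100%, NDUFA9 85.1% and ATP5MF 49.3% of its coding bases in exons of other genes, and the other 4 have none.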

How the results depend on the processing

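None of the 1350 alternative values of the 88 named fold-changes reversed, and 123 were no longer past the threshold. Of 234 alternative counts of calls 174 stayed within 1.5 times of the count reported. In 1 fit of all 18 libraries of the batch, which takes in WT replicate 2, the counts of higher and lower subunits were 19 higher in MI-spheres, 14 higher and 1 lower in MII-spheres, 0 and 0 in the interaction, 0 and 26 for MII Ctrl against MI Ctrl, 5 and 1 for SLUG KO and 4 and 42 for WT against MI Ctrl. With WT replicate 2 left out of that fit, 72 were higher and 2 lower in MI-spheres, and 69 higher and 1 lower in MII-spheres. For MII Ctrl against MI Ctrl 3 were higher and 60 lower. The counts were 1 and 1 in the interaction, 11 and 8 for SLUG KO and 14 and 50 for WT. This fit was added after seeing the data, as was the limit on shared bases. Over the subunits with under 20% of coding bases shared, 0 were lower in MI-spheres, 1 was lower in MII-spheres, 2 were higher in the interaction and 0 higher in WT. DESeq2 called 1 lower in MII-spheres and 2 higher in WT. Its median in MII-spheres was -0.237 over all genes, to which no low-count filter was applied, and 0.403 over the subunits, whereas its size factors in edgeR gave -0.0191 and 0.37. Without a low-count filter 1 was lower in MII-spheres and 34 were lower in WT. With at least 10 counts in every library 5 were higher in MII Ctrl and 8 higher in siSMAD2/3/4, and the gene-length offset gave 7 higher in siSMAD2/3/4. With flow cell as a term 7 were higher and 7 lower there. The cause of these shifts was not tested.

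Replicate numbers did not pair the libraries (correlations of deviations -0.123 to 0.051). With the replicate block, alone or with the gene-length offset, 2 subunits were lower in MII-spheres and 0 higher in WT, and the other counts stayed within 1.5 times.

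Leaving out 1 library at a time gave 68 to 71 higher and 2 to 3 lower in MI-spheres, 72 to 73 and 1 to 3 in MII-spheres, 2 to 7 and 3 to 9 in the interaction, 3 to 3 and 63 to 65 for MII Ctrl, 0 to 9 and 0 to 5 for SLUG KO, 3 to 9 and 7 to 18 for siSMAD2/3/4, and 0 to 12 and 13 to 50 for WT. Single libraries moved counts by over 1.5 times. In the interaction these were MI TGFβ replicate 2 (9 lower), MI TGFβ replicate 3 (7 higher, 5 lower), and MI Ctrl replicate 1 or MII TGFβ replicate 2 (2 higher each). In MII-spheres 1 was lower without MII Ctrl replicate 2 or 3 or MII TGFβ replicate 2, and 2 without replicate 1 of either group. For SLUG KO it was WT replicate 2 (9 higher, 5 lower), and for siSMAD2/3/4 Csi replicate 2 (9 higher, 8 lower) and Csi replicate 3 (7 lower). In WT against MI Ctrl none was higher without any 1 MI Ctrl library (edgeR), 2 were without WT replicate 1 or 3 and 12 without WT replicate 2, and 13 were lower without MI Ctrl replicate 1 or 3, 50 without WT replicate 2 and 32 without WT replicate 3. Depth limits the subunits at the lowest levels, such as COX7A1, below 3 CPM in every library.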
